A study of Mus musculus with 12 samples.

Results

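Chemokine ligands are small secreted proteins that bind G protein-coupled receptors on leukocytes and direct their migration. The 7 ligand genes described here are those chosen by symbol as products of CD4 T cells: Ccl3, Ccl4, Ccl5, Ccl1, Ccl9, Xcl1 and Cxcl16, which are 7 of the 43626 genes in the count matrix. Activated T and NK cells are known to release CCL3, CCL4, CCL5 and XCL1 together with cytotoxic granules or cytokines. CCL9, by contrast, is best known as a product of macrophages and other myeloid cells, and CXCL16, made mainly by antigen-presenting cells, is a membrane-bound ligand of CXCR6 that proteases release.

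The study measured total RNA of splenic CD4+ T cells in 12 mouse libraries, 3 in each of 4 groups. Naive CD4+ T cells, sorted as CD45RBhi CD25-, were transferred into adult male Rag2-/- recipients, which lack endogenous T and B lymphocytes but keep myeloid and NK cells. After 3 weeks, reporter-positive (GFP+) and reporter-negative (GFP-) CD4+ cells were sorted out of each spleen. Every donor carried 1 floxed Eomes allele and 1 GFP reporter allele: in the Het groups the donor genotype was Eomes flox/GFP; no cre, and in the KO groups Eomes flox/GFP; Lck-cre, in which Cre is driven by a promoter of the T lineage. EOMES is a T-box transcription factor of cytotoxic and memory lymphocytes, and the labels do not say whether the GFP allele still makes it. The GFP+ and GFP- libraries with the same number come from 1 recipient, so there were 6 recipients, 3 per genotype, and each library is 1 sort from 1 animal.

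Eomes, counted over the whole gene, stood at 109 ± 17.4 CPM (counts scaled by TMM to a library of 1000000; SD, n = 3) in Het GFP+ cells and 41.3 ± 8.44 in KO GFP+ cells, against 5.01 ± 3.70 and 2.95 ± 1.54 in the Het and KO GFP- cells. It was thus higher in GFP+ than in GFP- cells of both genotypes. Reads within the floxed part were not counted apart, so these values do not check the deletion in the KO cells. Total counts were 2116894 to 18167236 per library, and 4 very abundant features held 16.3% to 58.3% of them. GFP+ libraries came from 18000 to 117000 cells and GFP- libraries from 645000 to 2100000. The 6 T cell markers Cd3d, Cd3e, Cd3g, Cd4, Trac and Cd2 were well covered in every library, with a summed level of 1160 to 2160 CPM, and that sum was lower in the GFP+ library of all 6 recipients. All 17 myeloid markers were also detected: their sum was 219 to 1733 CPM in Het GFP-, 563 to 4149 in Het GFP+, 61.4 to 680 in KO GFP- and 363 to 1422 in KO GFP+ libraries, higher in the GFP+ library of 6 of 6 recipients. The 6 erythroid markers were higher in GFP+ libraries in 6 of 6 recipients as well (4.02 to 208 CPM over all libraries). In RNA from sorted populations, fewer cells of a type and less RNA per cell cannot be told apart.

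The 5′ flanks of 4 of the 7 members (Ccl3, Ccl1, Ccl9 and Xcl1) were matched in RefSeq's promoter table (GRCm38.p6). The 250 bases before the start are shown for Ccl3 and Xcl1, which share a motif, and for Ccl9, which does not hold that motif. All 3 were higher in GFP+ cells within most recipients: Ccl3 in 6, Xcl1 in 5 and Ccl9 in 5 of 6. Of all genes tested, 17.7% were higher in 6 of 6 recipients and 30% in at least 5 of 6. Capitals mark matches to TGTGGT, the core of RUNX sites, in Ccl3 and Xcl1. In Ccl9 they mark the TATA box core TATAAA as well as the AP-1 motif TGANTCA and the NF-kappaB motif. Both strands were searched. All 3 genes lie on the minus strand, and the sequences are written 5′ to 3′ on the strand of the gene.
Ccl3, chr11:83649379-83649628: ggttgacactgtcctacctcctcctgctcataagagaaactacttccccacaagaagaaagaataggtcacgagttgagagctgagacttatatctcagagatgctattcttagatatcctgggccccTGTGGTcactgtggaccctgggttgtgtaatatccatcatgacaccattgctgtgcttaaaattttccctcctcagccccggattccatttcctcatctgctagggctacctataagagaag
Xcl1, chr1:164935523-164935772: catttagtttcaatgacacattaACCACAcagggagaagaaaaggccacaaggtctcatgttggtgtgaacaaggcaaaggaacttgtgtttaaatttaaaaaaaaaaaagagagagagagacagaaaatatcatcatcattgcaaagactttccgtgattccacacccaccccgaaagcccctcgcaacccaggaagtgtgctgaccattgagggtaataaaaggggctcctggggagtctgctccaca
Ccl9, chr11:83578637-83578886: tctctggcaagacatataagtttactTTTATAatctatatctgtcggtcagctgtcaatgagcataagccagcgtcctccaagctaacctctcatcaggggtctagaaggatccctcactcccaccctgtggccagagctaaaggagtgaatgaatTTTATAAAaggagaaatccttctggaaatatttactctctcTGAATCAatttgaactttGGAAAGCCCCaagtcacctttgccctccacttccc
The T-box core AGGTGT was found in 0 of these 4 flanks and in 11.8% of the 32851 promoters of the table. TGTGGT was in 2 of the 4, against 14% of all promoters, and the NF-kappaB motif in 2 of the 4 (Ccl1 and Ccl9), against 7.25%. AP-1 and TATAAA matches were in Ccl9 alone among the 4, against 6.75% and 12.4% of all promoters, and TGACGTCA (CRE) was in 0 of the 4, against 1.55%. TGTGGT in Ccl3 begins 122 bases before the start, and in Xcl1 its complement begins 227 bases before. AP-1 matches on both strands are the same bases, and the forward and reverse TATAAA matches of Ccl9 near base 92 overlap. A match is a string of letters, not evidence of binding.

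Of the 7 members, 6 could be read, by the rule of at least 10 counts in at least 3 libraries, and these 6 passed the low-count filter. Ccl5 had by far the most counts (35786 over the 12 libraries, 125 to 9012 each), then Ccl4 (2016) and Ccl3 (1938). Xcl1 (264), Ccl9 (230) and Ccl1 (136) were thin, with 0 to 94 counts per library. Cxcl16 was too low to read: it had 60 counts in all and 10 or more in only 2 libraries, and its exons overlap Zmynd15 on the other strand, so, with the strand setting of the counting not given in the sources used here, reads of the pair cannot be told apart.

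Ccl3 (ENSMUSG00000000982.5, chr11:83647844-83649355, minus strand, GRCm38), Ccl4 (ENSMUSG00000018930.3, chr11:83662584-83664683, plus strand) and Ccl5 (ENSMUSG00000035042.2, chr11:83525778-83530518, minus strand) are 3-exon neighbours on chromosome 11, with 13228 bases between Ccl3 and Ccl4. Ccl9 (ENSMUSG00000019122.8, chr11:83572919-83578636, minus strand) lies between Ccl5 and Ccl3. Cxcl16 (ENSMUSG00000018920.7, chr11:70453983-70459984) and Xcl1 (ENSMUSG00000026573.7, chr1:164931644-164935527) are both on the minus strand, and Xcl1 shares exon bases with the plus-strand gene Gm20743. Ccl1 (ENSMUSG00000020702.9, chr11:82176657-82305690, minus strand) was counted over a span of 129034 bases, because 1 processed transcript of the annotation runs far beyond the coding transcript at chr11:82176657-82179812. Of its 12 exon blocks, 9 lie outside the coding transcript, so a Ccl1 count need not be a read of the chemokine's message.

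Per kilobase of exon, Ccl5 stood first in all 4 groups, above the range of the next member in each. Its mean level was 114 CPM per kb in Het GFP-, 353 in Het GFP+, 385 in KO GFP- and 228 in KO GFP+ libraries. Ccl4 came next and Ccl3 after it in Het GFP- (8.08 and 5.38 CPM per kb), KO GFP- (22.1 and 10.6) and KO GFP+ libraries (37.0 and 29.6), and Ccl3 came ahead in Het GFP+ (47.3 and 34.2). The ranges of Ccl3 and Ccl4 overlapped in every group but KO GFP-. Xcl1 ranked 4 in every group, at 1.64 to 6.62 CPM per kb, and its range overlapped that of its neighbours in Het but in neither KO group. Ccl9, Ccl1 and Cxcl16 filled the last 3 places, all with group means of at most 1.42 CPM per kb and mostly overlapping ranges.

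**Figure D1:**
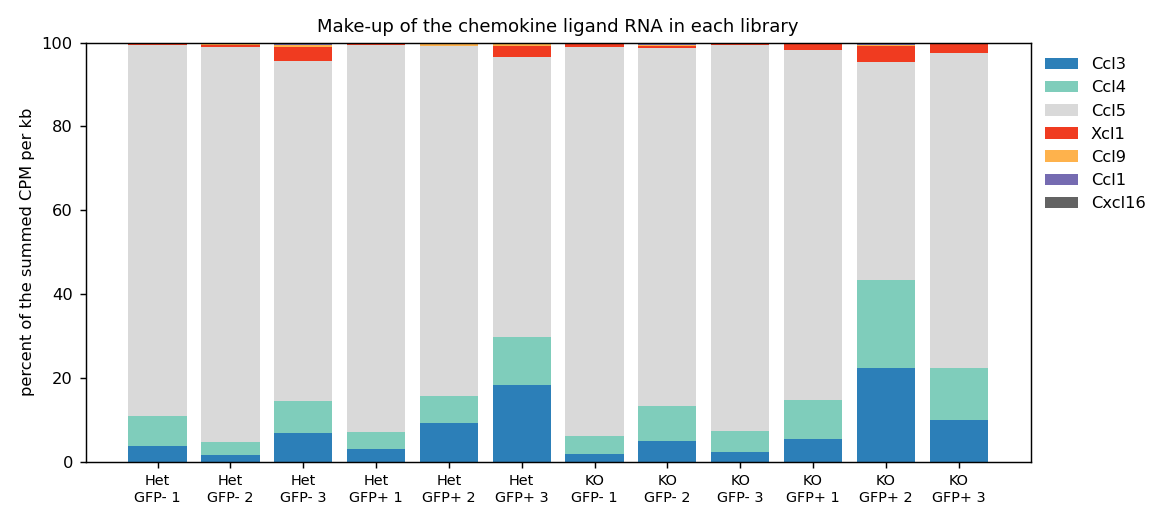
Percent of the summed CPM per kb of the 7 ligand genes taken by each gene, 1 bar per library. Ccl5 takes 51.9% to 94.2%, lowest in KO GFP+ replicate 2, where Ccl3 and Ccl4 take 22.4% and 21.1%.

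Ccl5 thus made up most of the ligand RNA of every library, as the plot of shares shows. The ratio of Ccl3 to Ccl4 per kilobase was higher in the GFP+ library of every recipient: it went from 0.537 to 0.765, 0.543 to 1.40 and 0.906 to 1.58 in the Het recipients, and from 0.426 to 0.593, 0.574 to 1.06 and 0.464 to 0.812 in the KO recipients. These ratios are a description, with no test.

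Ccl3 (MIP-1alpha, a ligand of CCR1) was higher in GFP+ cells of every recipient. In Het GFP- libraries it stood at 5.35, 1.16 and 5.85 CPM for replicates 1, 2 and 3, and in Het GFP+ libraries at 12.7, 15.2 and 80.8. The groups did not overlap, and GFP+ replicate 3 was far above the other libraries of its group. The KO GFP- libraries were at 7.66, 7.54 and 9.14 CPM and the KO GFP+ libraries at 22.0, 30.7 and 15.4, again without overlap. Ccl3 and Cxcl16 were the members with all KO GFP+ above all KO GFP- libraries, as 9.52% of all genes tested were, a share that leaves out Cxcl16. Within recipients the GFP+ level was 2.37, 13.2 and 13.8 times the GFP- level in Het and 2.87, 4.07 and 1.69 times in KO recipients.

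In the comparison of Het GFP+ with Het GFP- cells, which the study's design names as the signature of Eomes-expressing CD4 T cells, 1 of the 6 tested members was called, and it was Ccl3. A call is an adjusted p under 0.05 in the quasi-likelihood F-test of edgeR, with Benjamini-Hochberg adjustment over 13238 genes. In that test 3.45% of all genes were called, and 1.82% of all genes were called as higher. Ccl3 was higher by 3.16 on the log2 scale (SE 0.70, edgeR adjusted p = 0.0320). The call was lost without Het GFP- replicate 1, 2 or 3 (adjusted p = 0.0681, 0.126 and 0.0513), without Het GFP+ replicate 3 (difference 1.77, adjusted p = 0.0835) and when only these 2 groups were fitted (0.0752). With the recipient as a block, which the shared animal allows, the difference was 2.88 (SE 0.45, edgeR adjusted p = 0.00152), and it was 2.26 (adjusted p = 0.0168) with both libraries of Het recipient 3 left out. Over all 16 alternatives the adjusted p of Ccl3 ran from 9.4e-05 to 0.126.

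Ccl4 (MIP-1beta, a chemoattractant of T cells and monocytes) had a similar pattern at a smaller size. Its level was 8.59, 1.84 and 5.56 CPM in Het GFP- and 14.3, 9.37 and 44.1 in Het GFP+ libraries, and the groups did not overlap. Ccl3, Ccl4 and Ccl5 were the 3 members with all Het GFP+ above all Het GFP- libraries, as 12.7% of all genes were. For Ccl4, Het GFP+ replicate 3 was again the highest of all 12. In KO GFP- libraries it was 15.5, 11.3 and 17.0 CPM and in KO GFP+ libraries 32.0, 25.0 and 16.4, and these overlapped because KO recipient 3 had nearly equal levels in its 2 libraries (a ratio of 0.964). Ccl4 missed the threshold in Het cells with 1 mean per group (2.13, SE 0.58, edgeR adjusted p = 0.0653) and passed it with the recipient block (2.00, SE 0.41, edgeR adjusted p = 0.00603). Without Het recipient 3 the blocked difference was 1.36, with an adjusted p of 0.0522.

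**Figure D2:**
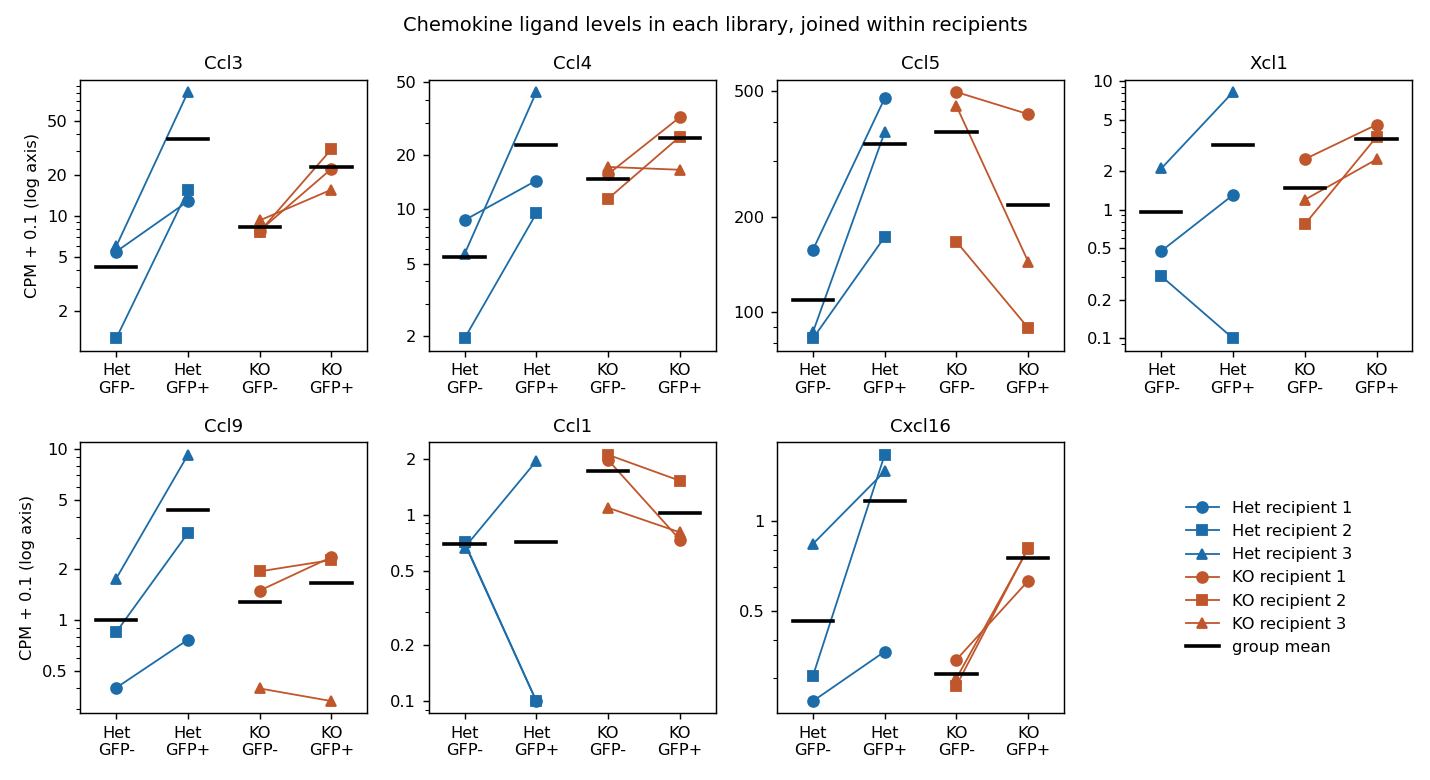
CPM plus 0.1 (log axis) of the 7 ligand genes in the 12 libraries; lines join the GFP- and GFP+ library of 1 recipient and black bars are group means. Ccl3 is higher at the GFP+ end of all 6 lines, while Ccl5 is higher at that end of the 3 Het lines and lower at that end of the 3 KO lines.

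Ccl5 (RANTES, a ligand of CCR1 and CCR3 that memory and effector T cells keep as ready message) went in opposite directions in the 2 genotypes. In Het libraries it stood at 158, 82.7 and 86.6 CPM in GFP- and 474, 173 and 370 in GFP+ cells, with no overlap. In KO libraries it stood at 495, 167 and 448 CPM in GFP- and 422, 89.2 and 144 in GFP+ cells, with overlap. Each KO recipient was thus lower in its GFP+ library, by a ratio of 0.852, 0.534 and 0.323, and each Het recipient was higher, 3.01, 2.09 and 4.27 times. The level of Ccl5 also differed between recipients on both sides of the sort: KO recipient 2 was the lowest of the KO recipients in GFP- and in GFP+ cells.

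With 1 mean per group, neither Ccl5 difference passed the threshold (Het 1.64, SE 0.58, edgeR adjusted p = 0.130; KO -0.75, SE 0.56, edgeR adjusted p = 0.472). With the recipient as a block both did: 1.59 in Het (SE 0.25, edgeR adjusted p = 0.00161) and -0.92 in KO (SE 0.25, edgeR adjusted p = 0.0321). The Het difference kept its call without any 1 of the 3 Het recipients (adjusted p = 0.00349 to 0.0134). The KO call was lost without KO recipient 2 or 3 (0.113 and 0.310) and held without KO recipient 1 (0.00279).

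The difference between the genotypes' reporter differences was tested as an interaction. With 1 mean per group 0 of 6 members were called, against 0.00755% of all genes; 1 member, Ccl5, had an unadjusted p under 0.05, and DESeq2 called 0. With the recipient block 1 member was called, Ccl5, against 0.0755% of all genes (10 genes). The Ccl5 term was 2.51 on the log2 scale (SE 0.36, edgeR adjusted p = 0.0359), after 2.39 (SE 0.80, edgeR adjusted p = 1.00) with 1 mean per group. It kept its sign and size without each recipient, but its adjusted p was 0.103, 0.0984, 0.0592 and 0.0609 without Het recipient 1, Het recipient 3, KO recipient 2 and KO recipient 3, and 0.0310 and 0.00195 without Het recipient 2 and KO recipient 1. Of all 13238 genes, 0.687% (91 genes) were higher in GFP+ cells of 3 of 3 Het recipients and lower in those of 3 of 3 KO recipients, and Ccl5 was the member among them. The interaction terms of Ccl3 (1.49), Ccl4 (1.33) and Ccl9 (1.74) in the blocked fit had unadjusted p of 0.0290, 0.0311 and 0.0162 and adjusted p of 0.927, 0.944 and 0.740.

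Xcl1 (lymphotactin, whose receptor XCR1 marks cross-presenting dendritic cells) was thin but went mostly with Ccl3 and Ccl4. It stood at 0.377, 0.204 and 1.99 CPM in Het GFP- and 1.20, 0 and 8.08 in Het GFP+ libraries. The 0 counts in Het GFP+ replicate 2, from a library with few counts outside the most abundant features, allow up to 1.17 CPM, so this library cannot show a level below that. In KO cells Xcl1 was 2.36, 0.669 and 1.09 CPM in GFP- and 4.46, 3.57 and 2.36 in GFP+ libraries, where GFP+ replicate 3 came just under GFP- replicate 1. Xcl1 was higher in the GFP+ library of 5 of 6 recipients. It was not called in Het cells with 1 mean per group (1.95, SE 1.01, edgeR adjusted p = 0.261) and was with the recipient block (1.71, SE 0.52, edgeR adjusted p = 0.0367). That call was lost without Het recipient 1 or 3 (adjusted p = 0.102 and 0.410).

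Ccl9 (MIP-1gamma, a ligand of CCR1) was higher in the GFP+ library of all 3 Het recipients and of KO recipients 1 and 2. It stood at 0.301, 0.749 and 1.65 CPM in Het GFP- and 0.667, 3.12 and 9.15 in Het GFP+ libraries, and at 1.39, 1.82 and 0.298 in KO GFP- and 2.23, 2.14 and 0.236 in KO GFP+ libraries. Het GFP+ replicate 3 held 94 of its 230 counts. Het recipient 1 had 4 counts in its GFP- and 5 in its GFP+ library. KO GFP+ replicates 2 and 3 had 3 and 2 counts, so the directions in these recipients rest on few counts. The Het difference was 2.27 (SE 0.97, edgeR adjusted p = 0.188) with 1 mean per group and 2.11 (SE 0.42, edgeR adjusted p = 0.00549) with the recipient block. Without Het recipient 3 the blocked value was 1.72, with an adjusted p of 0.103.

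Ccl1 (TCA-3, the ligand of CCR8) showed no reporter difference that passed the test in either genotype. It had 0 counts in Het GFP+ replicates 1 and 2, which allows up to 0.400 and 1.17 CPM, and 1.85 CPM in replicate 3, against 0.603, 0.613 and 0.568 in the Het GFP- libraries. In KO libraries it was 1.87, 2.01 and 0.993 CPM in GFP- and 0.638, 1.43 and 0.707 in GFP+ cells. Averaged over both genotypes, Ccl1 was called as lower without Het GFP+ replicate 3 (edgeR adjusted p = 0.0219) and in the block without Het recipient 3 (edgeR adjusted p = 0.0262), where the Het GFP+ libraries left have 0 counts. Cxcl16 was higher in the GFP+ library of 6 of 6 recipients, but on 1 to 14 counts per library. Its group means were 0.364 ± 0.325 CPM in Het GFP-, 1.06 ± 0.697 in Het GFP+, 0.209 ± 0.0322 in KO GFP- and 0.651 ± 0.103 in KO GFP+ cells (SD, n = 3).

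With the recipient block, 5 of the 6 tested members were called in the Het comparison, all as higher, and Ccl1 was not (0.10, SE 0.85, edgeR adjusted p = 0.948). The blocked fit called 22.2% of all genes, 12.8% as higher. The median difference was 1.85 over the 6 members and -0.02 over all genes tested. In the KO cells 0 of 6 members were called with 1 mean per group, against 0.128% of all genes; 0 members had an unadjusted p under 0.05 and DESeq2 called 0. The recipient block called 2 in KO cells, against 17.7% of all genes: Ccl3 as higher (1.39, SE 0.41, edgeR adjusted p = 0.0389) and Ccl5 as lower. The Ccl3 call in KO cells was lost without KO recipient 1, 2 or 3 (adjusted p = 0.0605, 0.170 and 0.112). Xcl1 was at 1.27 in KO cells (SE 0.45, adjusted p = 0.0691 by edgeR), Ccl4 at 0.68, Ccl9 at 0.37 and Ccl1 at -0.92, and their adjusted p ran from 0.0691 to 0.602. The median over the members was 0.52 and over all genes -0.03.

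**Figure D3:**
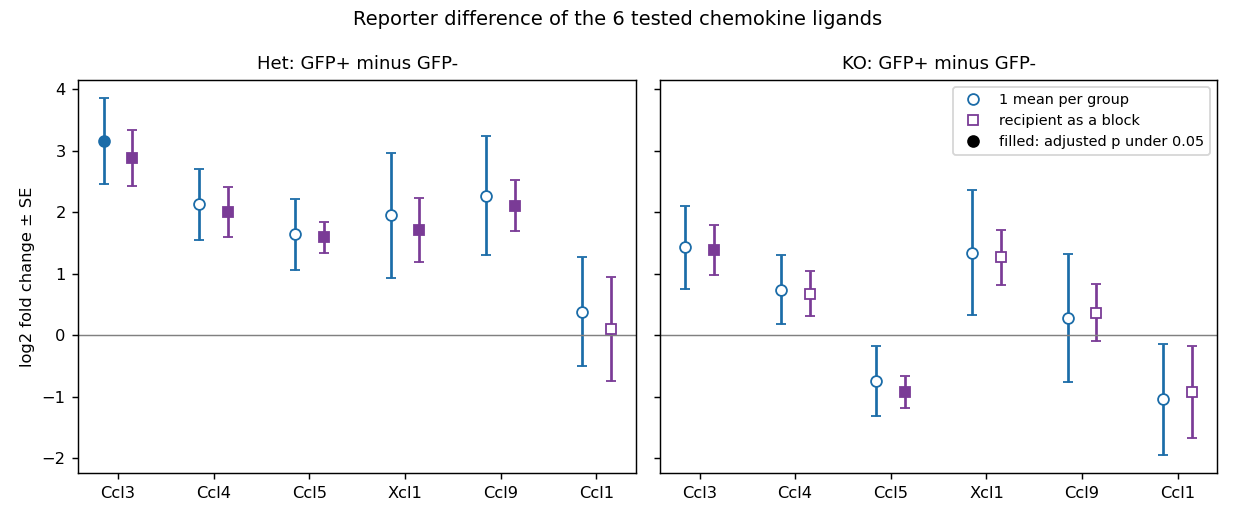
Log2 fold change of GFP+ over GFP- cells (± SE) for the 6 tested ligand genes in Het (left) and KO (right), with 1 mean per group (circles) or the recipient as a block (squares); filled symbols have an edgeR adjusted p under 0.05. The blocked estimates lie near the others, and their SEs are smaller for all 6 genes.

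Averaged over both genotypes, the reporter difference called 2 of 6 members with 1 mean per group, both as higher, against 18.1% of all genes (9.91% as higher). Ccl3 was at 2.30 (SE 0.49, edgeR adjusted p = 0.0130), and the call held without each library in turn. Ccl4 was at 1.43 (SE 0.40, edgeR adjusted p = 0.0334). Its call was lost without Het GFP- replicate 2 (adjusted p = 0.0664), Het GFP+ replicate 3 (0.0577), KO GFP- replicate 1 or 3 (0.0680 and 0.0580) or KO GFP+ replicate 2 or 3 (0.0568 and 0.0578). With the recipient block 4 members were called, against 41.1% of all genes (20.3% as higher): Ccl3 (2.13, SE 0.30), Ccl4 (1.34, SE 0.27), Xcl1 (1.49, SE 0.34) and Ccl9 (1.24, SE 0.32), with edgeR adjusted p of 0.000419, 0.00308, 0.00571 and 0.00980. Without Het recipient 3, Xcl1 and Ccl9 lost that call (0.0877 and 0.0706), as did Ccl9 without KO recipient 1 (0.0780). Among all genes tested 17.7% were higher in the GFP+ library of 6 of 6 recipients, as Ccl3 was. Cxcl16 was too, but it failed the filter and is not in that share. In at least 5 of 6 recipients 30% were higher, as Ccl4, Ccl9 and Xcl1 were.

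Het and KO GFP+ cells were compared for genes that depend on Eomes, the second comparison named in the design. Of the 6 members 0 were called by edgeR, against 0.106% of all genes (14 genes); 0 had an unadjusted p under 0.05, and DESeq2 called 0. Every member overlapped between these 2 groups, where 7.48% of all genes did not. Ccl3 had a mean of 36.2 ± 38.6 CPM in Het and 22.7 ± 7.66 in KO GFP+ cells (SD, n = 3), a difference of 0.75 on the log2 scale (SE 0.66, edgeR adjusted p = 0.983). Without Het GFP+ replicate 3 the Ccl3 difference was -0.68. Ccl4 was at 22.6 ± 18.8 and 24.4 ± 7.82 CPM (difference -0.07, SE 0.56, edgeR adjusted p = 1.00) and -1.02 without that library. Ccl5 was at 339 ± 153 and 219 ± 178 CPM (0.62, SE 0.56, edgeR adjusted p = 0.987).

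The GFP- cells of the 2 genotypes come from the same recipients as the GFP+ cells. Of the 6 members 0 were called by edgeR, as were 0% of all genes; 2 members, Ccl4 and Ccl5, had an unadjusted p under 0.05, and DESeq2 called 0. Ccl5 was at 109 ± 42.1 CPM in Het and 370 ± 177 in KO GFP- cells (-1.76, SE 0.58, edgeR adjusted p = 0.897), and Ccl4 at 5.33 ± 3.38 and 14.6 ± 2.94 CPM (-1.46, SE 0.57, edgeR adjusted p = 0.935). Ccl3 was at 4.12 ± 2.58 and 8.11 ± 0.889 CPM (-0.97, SE 0.67, edgeR adjusted p = 0.996; SD, n = 3 in each group). Ccl3, Ccl4, Ccl5 and Ccl1 each had all 3 Het libraries below all 3 KO libraries, a pattern shown by 5.89% of all genes. The KO GFP- level of Ccl5 was thus above its Het GFP- level, while its GFP+ levels overlapped.

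Myeloid cells, which the recipients keep, are known to make several of these ligands, and the myeloid marker sum of each library is set beside the members. Ccl9 was highest in the 2 libraries with the highest myeloid sums, at 9.15 CPM with a sum of 4149 (Het GFP+ replicate 3) and 3.12 CPM with a sum of 2383 (Het GFP+ replicate 2). Where the sum was lowest, at 61.4 (KO GFP- replicate 3), Ccl9 was 0.298 CPM. Its lowest level, 0.236 CPM, was in the GFP+ library of the same recipient, with a sum of 363. These levels of KO recipient 3 rest on 6 counts in GFP- and 2 in GFP+, so their order cannot be read. KO GFP- replicate 1 had 1.39 CPM of Ccl9 at a sum of 153. Per 1000 CPM of myeloid sum, Ccl9 ran from 0.650 to 9.08 CPM over the 12 libraries. The neutrophil genes S100a8 and S100a9, the granulocyte precursor genes Mpo and Elane and the lysozyme gene Lyz2 were among the markers, and Het GFP+ replicate 3 had the highest S100a8 (1053 CPM) and Mpo (223 CPM). The part of myeloid RNA in Ccl9 was not tested.

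**Figure D4:**
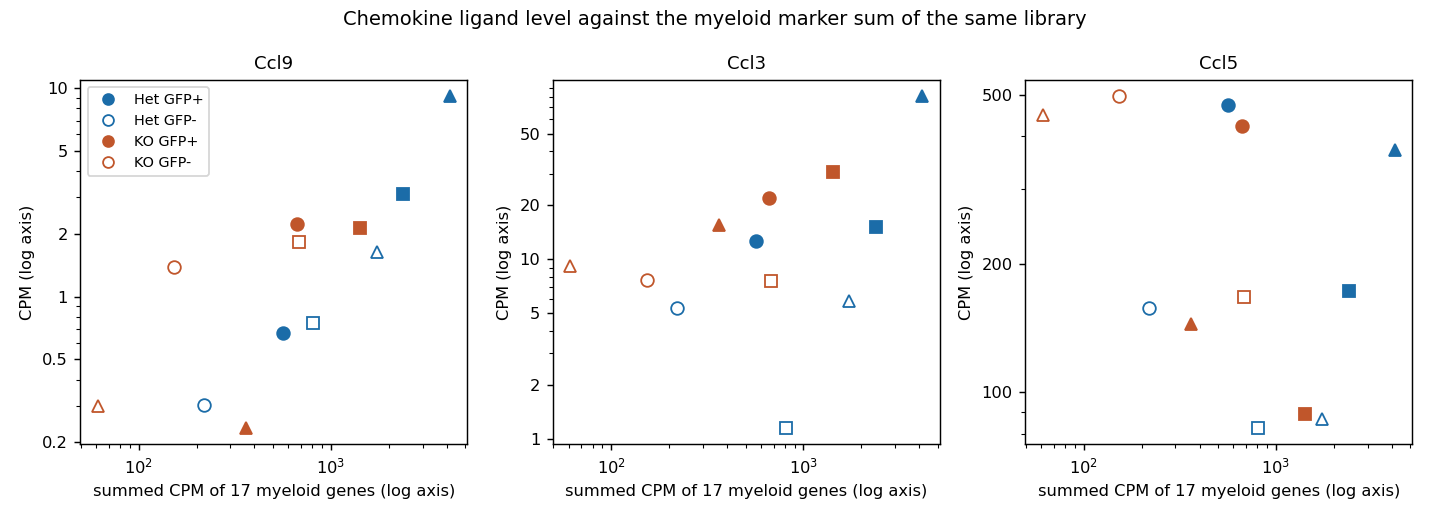
CPM of Ccl9, Ccl3 and Ccl5 against the summed CPM of 17 myeloid genes in the same library (both axes log); circles, squares and triangles are recipients 1, 2 and 3, filled for GFP+. Ccl9 and Ccl3 are each highest in the library with the highest sum (4149), and Ccl5 is at 448 CPM in that with the lowest (61.4). From GFP- to GFP+ the sum rises in all 6 recipients, while Ccl5 rises in the 3 Het and falls in the 3 KO recipients.

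For Ccl5 the order was different. The KO GFP- libraries 1 and 3 had the first and the third highest Ccl5 levels (495 and 448 CPM) at the lowest myeloid sums of all (153 and 61.4). In all 3 KO recipients Ccl5 was lower and the myeloid sum higher in the GFP+ library. In all 3 Het recipients both were higher there, with myeloid sums going from 219 to 563, 809 to 2383 and 1733 to 4149 CPM. The highest Ccl3 level, 80.8 CPM, was in the library with the highest myeloid sum (4149), and Het GFP+ replicate 2, with the next highest sum (2383), had 15.2 CPM of Ccl3. Per 1000 CPM of myeloid sum, Ccl3 went from 24.4 to 22.5, 1.43 to 6.39 and 3.37 to 19.5 CPM in the Het recipients and from 50.2 to 33.1, 11.1 to 21.6 and 149 to 42.5 in the KO recipients, higher in GFP+ cells in 3 of 6. The part of myeloid RNA in the Ccl3, Ccl4, Ccl5 and Xcl1 differences was not tested.

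NK cells, another known source of CCL3, CCL4, CCL5 and XCL1, remain in Rag2-/- mice. Of the 6 NK markers, the NK receptor gene Ncr1 was at 0 to 3.57 CPM, Klra8 and Klra4 at no more than 0.744 CPM, and Klre1 at 0 to 11.4 CPM, highest in both libraries of KO recipient 1. Klrb1c, which encodes NK1.1, was lower in the GFP+ library of all 6 recipients: it went from 4.37 to 1.73, 5.45 to 1.17 and 3.97 to 1.95 CPM in Het and from 7.50 to 6.38, 6.14 to 1.43 and 6.06 to 1.77 in KO recipients. Of the 3 NK markers tested, the recipient block called 1 as higher and 1 as lower in Het cells and 0 in KO cells. It called 22.2% of all genes in Het and 17.7% in KO cells. The sum of the 6 was 9.94 to 16.0 CPM in Het and 8.25 to 24.7 in KO libraries, higher in GFP+ in 5 of 6 recipients. Cd244a, which activated T cells also express, was higher in the GFP+ library of all 6 recipients. It went from 3.09 to 13.5, 2.45 to 10.9 and 5.50 to 8.86 CPM in Het recipients. In KO recipients it went from 4.73 to 5.53, 2.37 to 6.42 and 3.92 to 5.66 CPM. Cd244a made up most of the NK marker sum in the Het GFP+ libraries. The CD8 T cell markers Cd8a and Cd8b1 summed to at most 4.57 CPM, and the 5 B cell markers to at most 2.12 CPM. The 6 eosinophil, basophil or mast cell markers had a higher sum in the GFP+ library of 6 of 6 recipients. That sum was highest, at 34.0 CPM, in Het GFP+ replicate 3. The sum of 7 dendritic cell markers was 31.6 to 156 CPM over all libraries, higher in GFP+ in 3 of 6 recipients. The part of RNA from NK cells or these other cell types in the members was not tested.

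Few other chemokine ligands could be tested. Of 29 further ligand genes, 23 had any count and 6 were tested: Ccl6, Ccl25, Cxcl2, Cxcl9, Cxcl10 and Ppbp. With 1 mean per group 0 of the 6 were called in the Het comparison, against 3.45% of all genes. The recipient block called 4 in Het and 4 in KO cells, all as higher, namely Ccl6, Cxcl9, Cxcl10 and Cxcl2. It called 22.2% of all genes in Het and 17.7% in KO cells. Cxcl10, an interferon-induced ligand of CXCR3, was at 2.58 ± 1.79 and 9.25 ± 5.95 CPM in Het GFP- and GFP+ cells and at 4.60 ± 2.14 and 13.7 ± 5.19 in the KO cells (SD, n = 3), with a blocked difference of 1.71 over both genotypes (SE 0.21, edgeR adjusted p = 0.000149). Ccl6, a close relative of Ccl9 made by myeloid cells, was at 2.32 ± 1.88 and 9.81 ± 5.38 CPM in Het and 2.09 ± 1.45 and 5.15 ± 3.65 in KO cells. Cxcl9, also a ligand of CXCR3, was at 3.26 ± 3.05 and 8.25 ± 6.43 CPM in Het and 1.44 ± 1.07 and 4.57 ± 2.86 in KO cells, and the neutrophil attractant gene Cxcl2 at 0.268 ± 0.224 and 2.42 ± 2.11 CPM in Het and 0.145 ± 0.139 and 2.18 ± 0.669 in KO cells. Cxcl2 rested on 1 to 29 counts per library. The median blocked difference of these 6 genes was 1.62 in Het and 1.43 in KO cells. Several genes of this list are known from myeloid or stromal cells, and the part of such RNA in these differences was not tested.

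The receptors of the ligands were led by a gene that fell. Of 9 receptor genes 8 had any count and 6 were tested. Cxcr6, the CXCL16 receptor of effector T cells, was the most abundant, at 527 ± 167 CPM in Het GFP- and 79.7 ± 10.4 in Het GFP+ cells and at 447 ± 81.4 and 90.5 ± 76.6 in KO cells. It fell by 2.73 on the log2 scale in Het cells (SE 0.48, edgeR adjusted p = 0.0113). Cxcr6 was the 1 receptor called in Het cells with 1 mean per group, where 3.45% of all genes were called. Its blocked KO difference was -2.56 (SE 0.31, edgeR adjusted p = 0.00114), in a fit that called 17.7% of all genes in KO and 22.2% in Het cells. Ccr8, the CCL1 receptor, also fell with the block, with a difference of -1.04 in Het (SE 0.33, edgeR adjusted p = 0.0435) and -1.64 in KO cells (SE 0.33, edgeR adjusted p = 0.0106).

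**Figure D5:**
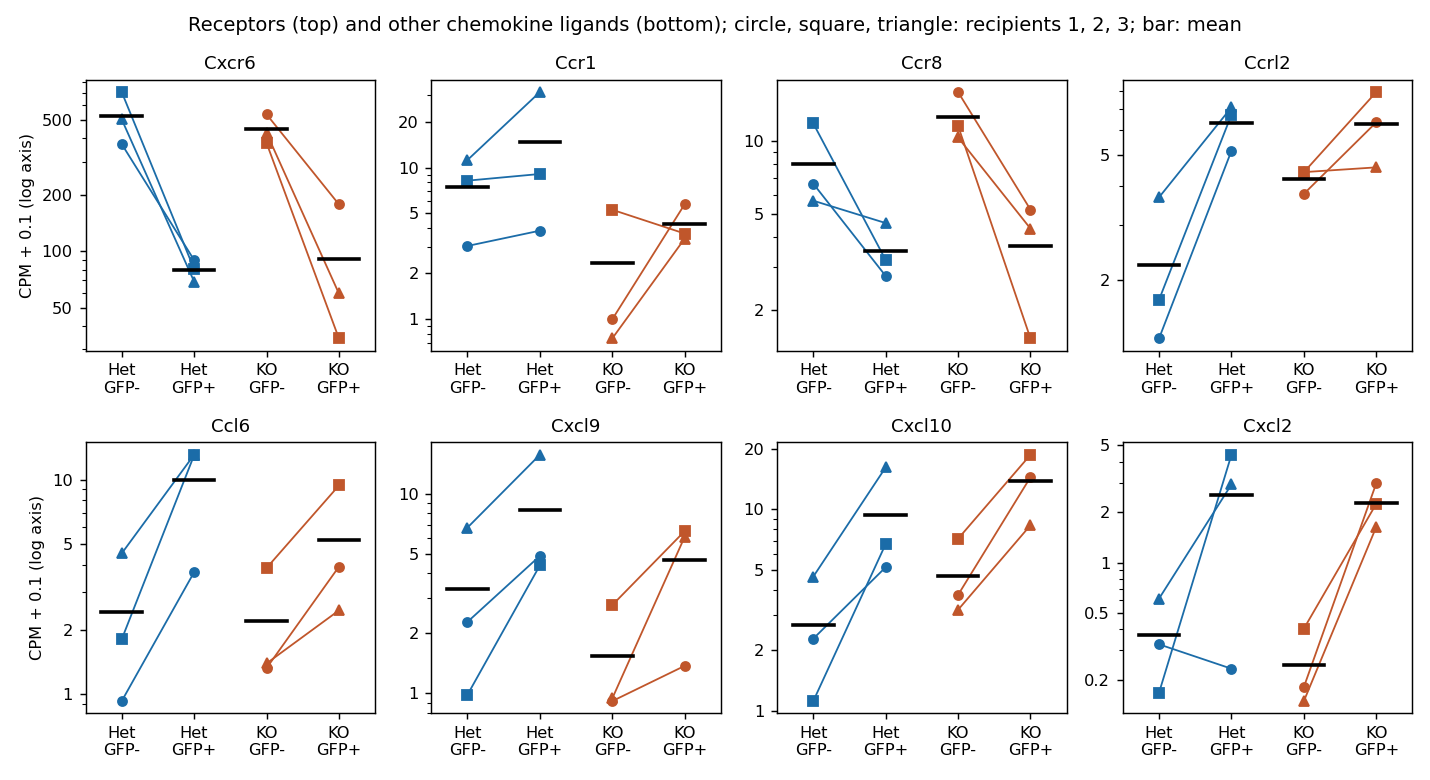
CPM plus 0.1 (log axis) of 4 receptor genes and 4 other ligand genes in each library, joined within recipients; black bars are group means. Cxcr6 is lower and Cxcl10 higher at the GFP+ end of all 6 lines.

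Ccrl2, an atypical receptor that binds chemerin and does not signal, was higher in Het GFP+ cells with the block (1.59, SE 0.33, edgeR adjusted p = 0.00703). It was not called there with 1 mean per group (1.52, edgeR adjusted p = 0.0589). In KO cells the block did not call it (0.53, SE 0.32, edgeR adjusted p = 0.265), while over both genotypes it did (1.06, edgeR adjusted p = 0.00451). Ccr1, a receptor of CCL3, CCL5 and CCL9 that myeloid cells express, was at 14.7 ± 14.7 CPM in Het GFP+ and 7.39 ± 4.14 in Het GFP- cells. With the recipient block it was not called in either genotype (0.77, edgeR adjusted p = 0.216 in Het; 1.61, edgeR adjusted p = 0.0541 in KO) and was called as higher over both (1.19, edgeR adjusted p = 0.0165). With a GC and length offset added to the block, Ccr1 was called as higher in Het (1.05, edgeR adjusted p = 0.0408) and in KO cells (1.79, edgeR adjusted p = 0.0135).

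Among 5 genes that store, cut or transcribe these ligands, 0 were called with 1 mean per group. Over all genes 3.45% were called in Het and 0.128% in KO cells. Adam10 and Adam17 (the proteases that shed CXCL16), Dpp4 (a peptidase that trims CCL5) and Klf13 (a transcription factor of Ccl5 in T cells) were not called with the recipient block in either genotype. With a GC and length offset added to the block, the Klf13 difference moved from -0.05 to -0.47 in Het (edgeR adjusted p = 0.0178) and from -0.06 to -0.43 in KO cells (edgeR adjusted p = 0.0326), and Klf13 was called as lower in both. Adam17 had group means of 137 to 214 CPM and Dpp4 of 59.8 to 74.0, and Adam10 stood at 104 ± 13.2 in Het GFP+ cells. Klf13 was at 367 ± 61.1 and 353 ± 38.5 CPM in Het GFP- and GFP+ cells and at 277 ± 48.6 and 263 ± 5.42 in KO cells (SD, n = 3). Srgn, whose proteoglycan holds chemokines in secretory granules, fell with the block only, with a difference of -0.73 in Het (SE 0.21, edgeR adjusted p = 0.0311) and -0.98 in KO cells (SE 0.22, edgeR adjusted p = 0.0145). The block thus called 1 of the 5 genes in each genotype, against 22.2% of all genes in Het and 17.7% in KO cells.

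By likeness over the 12 libraries (Pearson r of log2 CPM, given as a description since paired libraries share a recipient and all share depth differences), the nearest genes differed by member. Ccl3 was nearest to Nr4a2 (0.951), Gga2 (0.950), Rgs16 (0.937) and Napsa (0.936), and Ccl4 ranked 12 among its neighbours (0.919). Ccl4 was nearest to Tnfrsf9 (0.922), Ccl3 (0.919), Crtam (0.899) and Irf1 (0.885). Ccl5 was nearest to Zfp251 (0.899), Vmp1 (0.887), Entpd1 (0.874) and Gbp7 (0.864), and its r was 0.384 with Ccl3 and 0.597 with Ccl4. Ccl9 was nearest to I830127L07Rik (0.924), Rgs2 (0.910), Megf9 (0.903) and Clec12a (0.895), and its r was 0.577 with Ccl3. Xcl1 was nearest to Cryl1 (0.953), Mt2 (0.937), Atp6v1h (0.906) and Lrrc27 (0.906), with 0.730 for Ccl4 and 0.647 for Ccl3. Ccl1, at 0 to 33 counts per library, was nearest to E130208F15Rik (0.888), and its r with the other 5 readable members was -0.01 to 0.536.

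The authors' deposited table of Het GFP+ against Het GFP- cells, which holds 1406 genes, gives Ccl5 at 1.44 (SE 0.34, adjusted p = 0.000890, DESeq2) and Ccl4 at 1.57 (SE 0.46, adjusted p = 0.0105, DESeq2), and does not list Ccl3. Their deposited table of KO GFP+ against KO GFP- cells, with 388 genes, lists Ccl3 at 1.23 (SE 0.27, adjusted p = 0.000979, DESeq2) and neither Ccl4 nor Ccl5. The authors' deposited table of the 2 GFP+ groups, with 77 genes, lists no member.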

How the data were processed

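Gene counts of 12 libraries were analysed as the authors deposited them; per the labels' protocols, RNA was depleted of ribosomal RNA and made into stranded TruSeq libraries. Per the submitters' processing notes, bcl2fastq 1.8.4, TopHat2 2.0.13, featureCounts 1.5.0-p1 and DESeq2 1.6.1 were used on mm10; annotation release and strand setting: not given in the sources used here. The authors also deposited tables of log2 fold changes with p-values, base means (a signal of normalised counts) and the Wald score; they list only genes under an adjusted p of 0.05.

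The matrix equals the per-sample files in every cell. Genes were tested with edgeR 4.0.16 (quasi-likelihood F-test, TMM, filterByExpr, 1 mean per group over all 12 libraries, Benjamini-Hochberg over 13238 genes, two-sided, threshold 0.05), checked first on simulated counts. The summed exon length of the counted gene gave CPM per kb. Intervals were not formed for counts; a floor of 3 counts stands for a count of 0 and covers counting error only. The recipient was fitted as a block as an alternative, since the design text says that same-numbered GFP+ and GFP- libraries share a recipient. Their deviations from group means correlated at 0.241 to 0.617 in Het and 0.263 to 0.507 in KO recipients. For GFP+ and GFP- libraries of unlike number the values were -0.553 to 0.122 in Het and -0.542 to 0.268 in KO. Positions are from GENCODE M21 (GRCm38), whose identifiers match 42548 of 43626 genes.

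The members, gene lists and marker lists were chosen with earlier results of these data known. Named genes are the members, genes of 3 pathway lists that were called or reached 5 CPM in a group, and the 4 genes most like each readable member. Other alternatives were RLE scaling, DESeq2, no low-count filter, leaving out the 4 dominant features, a GC and length offset, only the groups compared, a block by number between genotypes, and leaving out each library or recipient. Cxcl16 was left out of the main tests because it failed the filter. 1 receptor gene of the list is not reported here.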

Additional observations from a re-analysis of the deposited data

Results flagged for a closer look

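Ccl5 was singled out because its GFP+ to GFP- difference differed between the genotypes: with the recipient as a block, the Het difference exceeded the KO difference by 2.51 on the log2 scale (SE 0.36, edgeR adjusted p = 0.0359). It was higher in the GFP+ library in 3 of 3 Het recipients and lower in 3 of 3 KO recipients. Its adjusted p over the 24 alternatives to the fit with 1 mean per group ran from 0.00195 to 1.00. The Ccl5 libraries at the extremes were KO GFP- replicate 1 (495 CPM) and Het GFP- replicate 2 (82.7 CPM).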

How the results depend on the processing

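Of the fold changes of single members under the alternatives, 541 kept their direction and side of the threshold, 48 passed it newly, 11 lost it and 22 changed sign; of the counts of called members, 74 stayed within 1.5 times and 30 did not. The cause was not tested.

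For the Het reporter difference (1 member called), DESeq2 and the fit with no low-count filter called 3 each, the replicate block 5 (also with the GC and length offset), and the fit of only the groups compared 0; leaving out 1 library gave 0 to 1, and the block without Het recipient 1, 2 or 3 gave 4, 5 and 2. For KO (0 called), the block called 2, with the offset 3, and without KO recipient 1 it called 1. The interaction (0 called) had 1 with the block, with the offset and without Het recipient 2 or KO recipient 1. The mean reporter difference (2 called) had 4 with the block, 5 with the offset, 1 to 3 without 1 library, and in the block 4, 4, 3, 3, 4 and 5 without Het 1, Het 2, Het 3, KO 1, KO 2 and KO 3. The calls for Het and the interaction were all as higher. In KO, 1 call was as lower with the block (Ccl5), 1 with the offset, and the 1 without KO recipient 1 (Ccl5). For the mean the calls were as higher, except for Ccl1. It was called as lower without Het GFP+ replicate 3 (-3.39) and in the block without Het recipient 3 (-3.30), both set by the prior count. The offset moved the split of all calls: 1698 higher and 1246 lower became 1440 and 1824 in Het, 1271 and 1078 became 1235 and 1577 in KO. Over all genes, the Het difference had 457 calls with 1 mean per group, 2944 with the block, 1189 by DESeq2 and 897 with no filter, and KO had 17, 2349, 390 and 201. The mean had 2395, and 5438 with the block. Between genotypes, GFP+ cells had 14, 95 by DESeq2, 72 with no filter and 2 with only these groups, and GFP- cells had 0, 45, 26 and 7. The members with 0 to 94 counts per library (Xcl1, Ccl9 and Ccl1) are limited by depth.

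Signs changed mostly without 1 library. The Het difference of Ccl1 ran from -5.75 to 0.97 and was -5.68 in the block without Het recipient 3, which leaves its Het GFP+ group at 0 counts and the value set by the prior count; Xcl1 ran from -0.15 to 3.52. Between the GFP+ groups Ccl3 ran from -0.68 to 1.17, Ccl4 from -1.02 to 0.24, Ccl1 from -6.17 to 0.60 and Xcl1 from -2.14 to 0.41. Ccl9 ran from -0.74 to 0.92 in KO and from -1.13 to 0.15 between the GFP- groups. The interaction of Ccl1 ran from -4.72 to 2.03 and of Xcl1 from -1.49 to 2.16, and they were -4.77 and -0.10 in the block without Het recipient 3. A block by number between Het and KO, which share only numbers (correlations of -0.145 to 0.166 in GFP+ cells), called 0 members in either sort.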
